A study of Homo sapiens with 23 samples.

Results

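The MCF10A line expressing the p53 mutant G245S was set against the other 9 lines of the panel that express a p53 missense mutant. It is 1 of 13 lines with RNA sequencing, each represented by a single library without replicates, and its library was identified by its label. The G245S line carries the V5-tagged mutant. The other 9 carry V5-tagged R175H, H179R, Y163C, Y220C, Y234C, R248Q, R248W, R273C or R273H, and 3 controls complete the panel: WTKD with wild-type p53 knocked down by shRNA, WTOE with wild-type p53 overexpressed, and the parental WT. All mutant lines were made by lentiviral transduction of MCF10A, a non-transformed human mammary epithelial cell line, keep their own wild-type p53, and were grown without treatment. Each line is a single stable line, so a difference between 2 libraries joins the effect of the mutant with whatever else differs between these cultures and libraries.

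p53 is a transcription factor that binds DNA as a tetramer and switches on genes of cell cycle arrest, DNA repair and cell death. Most cancer mutations fall in its DNA-binding domain. Contact mutants such as R248Q and R273H change a residue that touches DNA, whereas structural mutants, G245S among them, change a residue elsewhere in that domain. A mutant subunit can join wild-type subunits in a tetramer and weaken their binding.

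Levels are log2(TPM+1), where TPM is transcripts scaled to the same total in every library, so a difference of 1 is a doubling on the TPM+1 scale. Of 58358 genes listed, 14884 reached 1 in at least 3 of the 13 lines and were compared. G245S is 1 of the 13, so a gene of low level can pass only through a high G245S value, which favours higher calls there. A gene was called higher when the G245S value lay above all other 9 mutant lines and at least 1 above their mean, and called lower in the mirrored case. The distance from the G245S value to the nearest of the other 9 is the margin. With 1 library per line there is no replicate error and no test over replicates, and the SD given below is the spread over 9 different mutant lines. Some line must be the highest and some line the lowest for every gene, so a place outside the range of the others is common and a single such gene carries little weight.

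G245S was called higher in 1044 genes (7.01% of those compared) and lower in 264 (1.77%). Without the minimum difference it lay above the other 9 lines in 1298 genes (8.72%) and below them in 333 (2.24%), so 89.0% of the genes stayed inside the range of the other lines. In a gene list with 1 or 2 calls, the calls describe single genes and not the list. The median difference over all genes was 0.09. The balance of the calls rests on the scale of the columns: 79.8% of called genes were higher as deposited, 57.4% after quantile normalization (836 higher, 621 lower) and 46.0% after each column was shifted to the same median (728 higher, 853 lower), while the median over all genes became -0.02 and -0.13. Lower calls also rest on R273H and Y234C, the lines with the fewest genes at 1 or more, since leaving both out gave 1176 higher and 817 lower. Of the calls, 804 higher and 189 lower also lay outside the 3 control lines.

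**Figure D1:**
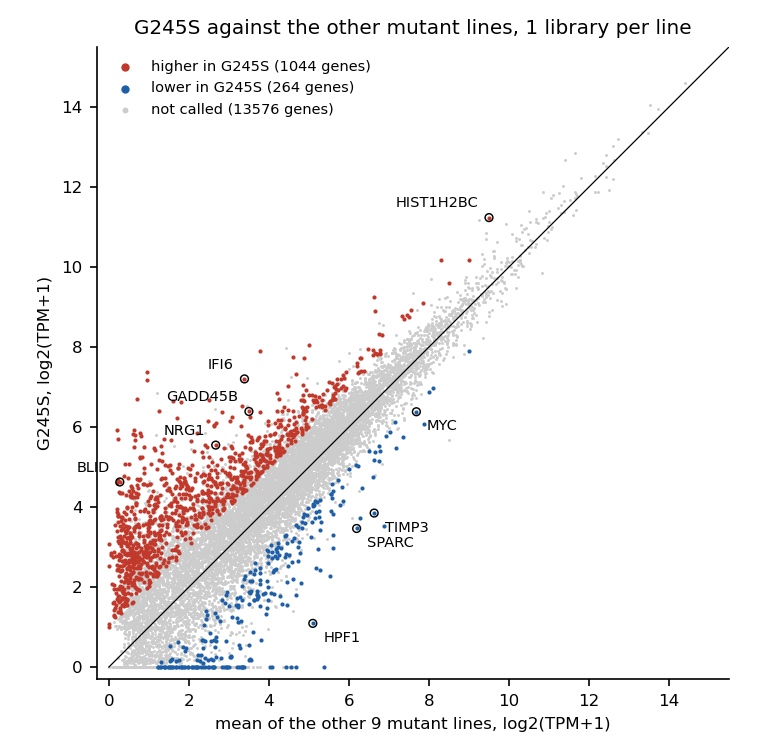
Each point is 1 of the 14884 genes compared, with its level in G245S on the vertical axis and the mean of the other 9 mutant lines on the horizontal axis, both as log2(TPM+1). The line marks equal values; the 1044 genes called higher are red, the 264 called lower are blue, and most called genes lie below a mean of 4, with 58 of the lower genes listed at 0 in G245S.

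The higher calls gathered among genes of low level. Among 4933 genes with a mean below 2 over the 10 mutant lines, 529 (10.7%) were called higher and 41 (0.831%) lower. Lower calls were most frequent at a mean of 2 to 4, with 125 of 3764 genes (3.32%). Near 0 a value has little room to fall by 1. Among 2114 genes with a mean of at least 6, G245S was called higher in 35 (1.66%) and lower in 23 (1.09%). Protein-coding genes made up 678 of the 1044 higher and 220 of the 264 lower calls, beside 11562 of the 14884 genes compared. Their share was thus smaller among the higher calls than among all genes, and slightly larger among the lower calls. The edge of the rule is narrow: ATP7B was just called higher with a difference of 1.00104 and RNF207, at 0.998516, just was not, and the lower edge fell between CREBL2 at -1.00513 and SAMD4B at -0.999458.

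The G245S library did not stand at an end of the panel. It had 12582 genes at 1 or more, against 9939 to 13952 in the other 9 mutant lines, and its 50 highest genes held 32.0% of TPM, against 27.1% to 46.8%. By the same rule the other mutant lines had 930 to 1535 genes called higher and 111 to 3804 called lower, so G245S ranked 6 of 10 for higher and 7 of 10 for lower calls. Its rank correlation across genes was highest with R273C (Spearman 0.859) and lowest with Y234C (0.778). Genes are not replicates, and these are descriptions. Markers of mammary epithelium were present, with summed basal markers at 3264 TPM in G245S and 2802 to 6156 TPM in the other 9. Of the blood cell markers 11 of 12 were at 0 in G245S and of the endothelial markers 7 of 9, and summed fibroblast markers came to 29.8 TPM in G245S, against 4.66 to 76.8 TPM.

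CDKN1A, the p53 target that encodes the cell cycle inhibitor p21, was at 6.30 in G245S, against 5.18, 7.30 and 8.02 as the lowest, median and highest of the other 9. Only R273H was lower among the mutant lines, and the controls had 6.95 (WTKD), 6.46 (WTOE) and 7.78 (WT). The difference of -0.84 from a mean of 7.14 ± 0.82 (SD over 9 lines) did not reach the rule. Over 31 measured wild-type p53 targets, 1 was called higher and 1 lower (3.23% each, against 7.01% and 1.77% of all genes). The median difference was -0.15. XPC, which recognises damaged DNA in nucleotide excision repair, was at 5.43 in G245S, against 0.86 to 5.21 with a median of 4.86, and its call was lost when R273H was left out. SESN2, a stress-induced inhibitor of mTORC1 signalling, was listed at 0 in G245S, against 0.20 to 3.90 with a median of 2.06, and was also listed at 0 in WT. Without R273H and Y234C, 6 of the 31 targets were called lower and none higher. Over all genes that setting called 5.49% lower, against 1.77% by the main rule, and 7.9% higher.

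Among the lists with 5 or more measured genes, replication histones had the highest median difference in G245S. These genes supply histones that package newly copied DNA. Transcripts of most such genes peak in S phase and carry a stem-loop in place of a poly(A) tail, though not those of every member. Libraries here were made from total RNA. All 20 measured genes of the list were above the mean of the other 9, by 0.27 to 2.72, with a median difference of 1.21 beside 0.09 over all genes. G245S was called higher in 7 of the 20 (35%, against 7.01% of all genes) and lower in none. Taken in turn against their own other 9, the other mutant lines had list medians of -0.58 (Y220C) to 0.25 (R273C). The list median in G245S was 0.99 to 1.29 over all alternatives tried, while the number called moved to 4 after the median shift, 9 after quantile normalization, 4 against all 12 other lines and 12 without R273H and Y234C.

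HIST1H2BJ (H2BC11, an H2B gene) had the largest margin of the list: it was at 6.24 in G245S, against 1.70, 3.89 and 4.81 as the lowest, median and highest of the other 9. Its controls were at 2.22 (WTKD), 4.70 (WTOE) and 5.39 (WT), all below G245S, and the difference was 2.72 from a mean of 3.53 ± 1.08 (SD over 9 lines). HIST1H2BC (H2BC4), among the most abundant genes of the table, was at 11.24 in G245S, against 8.41 to 10.87 with a median of 9.47, which is 2410 TPM in G245S beside a median of 709.1 TPM. HIST2H2BE (H2BC21), an H2B gene in another cluster on chromosome 1, was at 5.97 in G245S, against 2.47 to 5.38. HIST1H1B, a linker histone, was at 8.74 in G245S, against 6.70 to 8.42.

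The 3 called H4 genes were all exceeded by WT. HIST1H4C was at 7.39 in G245S, against 4.14 to 7.01, HIST1H4E at 7.20, against 3.14 to 7.14, and HIST1H4H at 5.49, against 3.39 to 5.26. WT had 7.86, 8.16 and 6.96 in the same order. Of the 13 members not called, HIST1H2BD lay above the range with a difference of 0.88 and the rest lay inside it, among them HIST1H3B, at 12.85 in G245S against 10.37 to 13.004. A wider set took histone cluster genes by name where they were annotated as protein-coding, and was chosen after the values were seen. It gave 11 of 49 called higher (22.4%, against 7.01% of all genes) and none lower. The median difference was 1.01, with 44 of 49 above the mean. This set is not complete, as HIST1H3B is not in it. Histone genes are near-identical copies, and reads shared between copies may not have been counted for any of them.

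The promoters of the 3 called H2B genes are shown as those of the list's H2B genes that were called, and H2B promoters are known for a CCAAT box, the octamer ATTTGCAT and a TATA box. The letters run 5′ to 3′ on the gene's strand over the 140 bases from 160 to 21 before the start site, from RefSeq with GRCh38.p14, and capitals mark CCAAT on either strand, ATTTGCAT and TATAAA.
HIST1H2BJ, chr6:27132816-27132955, minus strand: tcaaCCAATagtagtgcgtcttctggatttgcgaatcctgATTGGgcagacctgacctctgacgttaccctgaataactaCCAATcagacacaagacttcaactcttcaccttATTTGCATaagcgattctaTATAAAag
HIST1H2BC, chr6:26123947-26124086, minus strand: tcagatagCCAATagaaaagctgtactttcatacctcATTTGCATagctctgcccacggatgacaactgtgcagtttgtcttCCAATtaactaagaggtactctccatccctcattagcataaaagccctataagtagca
HIST2H2BE, chr1:149886703-149886842, minus strand: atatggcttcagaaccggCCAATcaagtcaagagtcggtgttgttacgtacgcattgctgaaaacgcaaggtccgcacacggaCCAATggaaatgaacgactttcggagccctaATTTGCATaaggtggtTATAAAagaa

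ATTTGCAT was found within 250 bases before the start in all 3, at 47, 123 and 46 bases, and in 1 of the 2 H2B genes of the list that were not called. On either strand it occurs in 1.63% of 35116 human promoters of that length, CCAAT in 32.0% and TATAAA in 10.7%. A match is a description of the letters, and as the uncalled members hold them too, it does not set the called genes apart.

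The promoters of HIST1H4H and HIST1H4E are shown for how alike they are, with the longest run they share in capitals, over the same 140 bases and from the same source.
HIST1H4H, chr6:26285555-26285694, minus strand: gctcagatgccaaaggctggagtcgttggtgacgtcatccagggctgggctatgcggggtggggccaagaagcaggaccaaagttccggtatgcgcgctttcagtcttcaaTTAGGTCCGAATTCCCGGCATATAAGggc
HIST1H4E, chr6:26204450-26204589, plus strand: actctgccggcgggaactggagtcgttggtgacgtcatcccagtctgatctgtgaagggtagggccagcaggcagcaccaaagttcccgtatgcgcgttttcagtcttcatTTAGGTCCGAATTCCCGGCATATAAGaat

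The shared run is 26 bases long, from 49 to 24 before the start in both, and 111 of the 140 positions (79.3%) carry the same base. Neither window holds CCAAT, ATTTGCAT or TATAAA within 250 bases before the start.

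Proliferation genes moved little beside the histones. Their median difference was 0.36 over 35 genes, the highest of the 10 mutant lines but close to Y163C (0.33) and R248W (0.32). None was called higher and 1 was called lower (2.86%, against 1.77% of all genes). CDT1, which loads the replicative helicase onto origins, was at 2.81 in G245S, against 3.64, 4.26 and 4.64 as the lowest, median and highest of the other 9, and all 3 controls were at 4.04 or more. MKI67, a marker of cycling cells, was at 8.41 in G245S, against 6.61 to 8.69, and PCNA, the sliding clamp of replication, at 7.89, against 7.25 to 9.09; both were named after their values were seen.

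Interferon-stimulated genes are switched on by the STAT and IRF factors that follow interferon or viral RNA sensing. G245S was called higher in 4 of 22 measured genes (18.2%, against 7.01% of all genes) and lower in none, with 17 of 22 above the mean and a median difference of 0.58. The list median was higher still in R248W (0.85) and R273C (0.93), and G245S ranked 3 of the 10 lines. It was 0.24 to 1.00 over the alternatives, and 3 genes stayed called after quantile normalization, after the median shift or against all 12 other lines.

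IFI6, which encodes a mitochondrial and endoplasmic reticulum protein with antiviral activity, was at 7.20 in G245S. The other 9 lines ran from 0.00 in Y234C through a median of 2.92 to 6.72 in R273C and 6.63 in R248Q, with controls at 2.66 (WTKD), 0.48 (WTOE) and 5.87 (WT). The difference of 3.81 was from a mean of 3.39 ± 2.32 (SD over 9 lines), so G245S was at the top of a gene that varied widely in the panel. IFI27 had the same form, at 5.05 in G245S, against 0.00 to 4.65 with a median of 0.86.

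HERC5, the ligase that attaches the ubiquitin-like ISG15 to proteins, stood further apart. It was at 4.62 in G245S, against 0.19, 2.53 and 3.03 as the lowest, median and highest of the other 9, and the controls had 3.55 (WTKD), 0.25 (WTOE) and 2.28 (WT). DDX58, the viral RNA sensor RIG-I, was at 4.34 in G245S, against 0.28 to 4.18, and WTKD was at 4.38. ISG15 itself was at 4.22 in G245S, against 0.48 to 5.16, and IFIT1 at 1.81, against 0.00 to 3.11, both inside the range. Most of the list was therefore not outside the other lines.

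**Figure D2:**
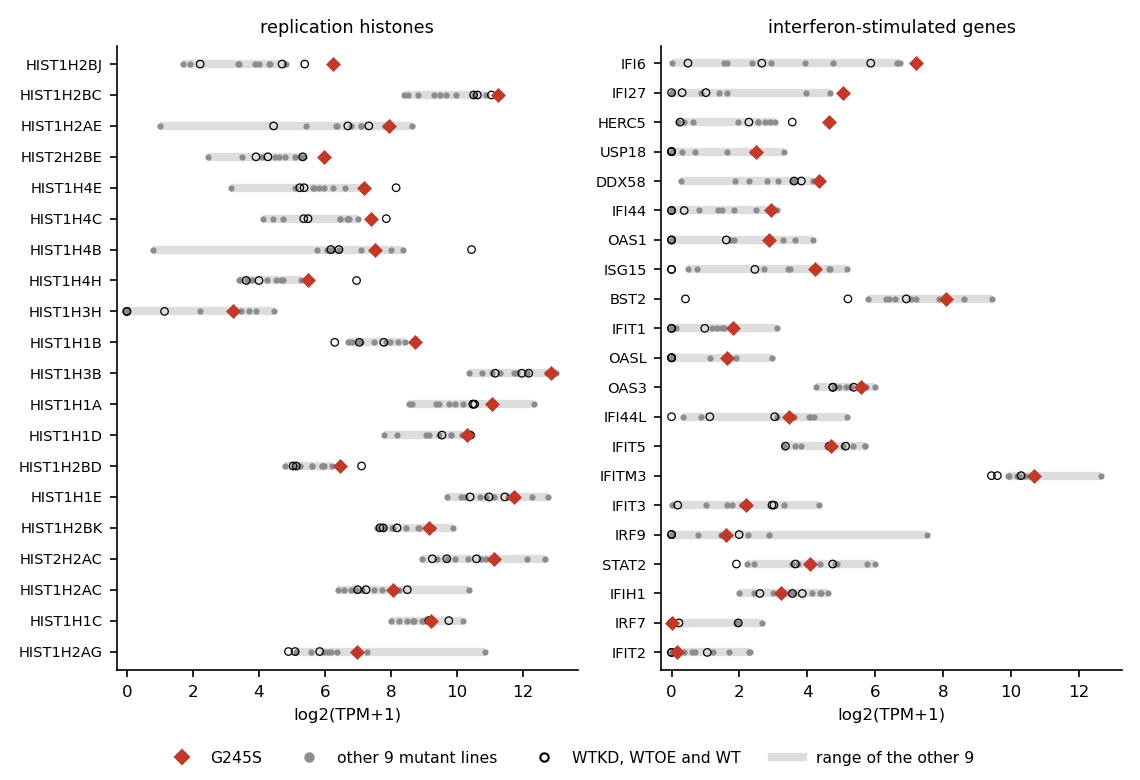
Levels as log2(TPM+1) of all 20 measured replication histones (left) and 21 of the 22 measured interferon-stimulated genes (right), ordered by how far G245S lies from the average of the other 9. Red diamonds are G245S, grey points the other 9, open circles WTKD, WTOE and WT, and grey bars the range of the other 9; G245S lies beyond the bar in HIST1H2BJ (6.24 against a highest of 4.81) and HERC5 (4.62 against 3.03) and inside it for ISG15 and IFIT1.

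The promoters of the called genes IFI6, IFI27 and HERC5 are shown because interferon-responsive promoters are known for the element GAAANNGAAA, which IRF factors bind. Capitals mark it on either strand in the 100 bases from 160 to 61 before the start, 5′ to 3′ on the gene's strand, from RefSeq with GRCh38.p14.
IFI6, chr1:27672253-27672352, minus strand: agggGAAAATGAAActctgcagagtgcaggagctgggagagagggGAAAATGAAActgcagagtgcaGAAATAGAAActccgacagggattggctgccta
IFI27, chr14:94110576-94110675, plus strand: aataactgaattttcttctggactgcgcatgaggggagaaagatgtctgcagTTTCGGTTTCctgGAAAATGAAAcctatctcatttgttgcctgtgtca
HERC5, chr4:88456959-88457058, plus strand: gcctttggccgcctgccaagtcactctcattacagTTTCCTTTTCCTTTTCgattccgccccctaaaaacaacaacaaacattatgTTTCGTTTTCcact

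The element had 3 matches in IFI6, 2 in IFI27 and 3 in HERC5, where the first 2 overlap, and none in DDX58. It was found in 3 of the 4 called genes and in 10 of the 13 uncalled members with a promoter entry, against 3.02% of all 35116 promoters, so it marks the list and not the genes that were called.

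Matrix proteases and their inhibitors were the list with the most lower calls. Plasminogen activators turn plasminogen into plasmin, which degrades matrix, and TIMP proteins block metalloproteases. G245S was called lower in 4 of 19 measured genes (21.1%, against 1.77% of all genes) and higher in none, with a median difference of -0.56. R273H had a lower list median (-1.12) and 4 lower calls of its own. Over the alternatives the median was -0.87 to -0.10 and 3 to 5 members were called lower.

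PLAT, tissue plasminogen activator, was listed at 0 in G245S, against 3.08, 4.98 and 5.86 as the lowest, median and highest of the other 9, and at 3.86 (WTKD), 4.14 (WTOE) and 5.54 (WT) in the controls. It was above 3 in every other library of the panel. PLAU, urokinase, was also listed at 0 in G245S and was at 0.16 in R273H, while the remaining 8 mutant lines had 2.997 to 5.36 and the controls 4.34 to 4.60, so these 2 lines were both low. Its receptor PLAUR was at 5.98 in G245S, against 3.98 to 6.11, inside the range.

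TIMP3, an inhibitor of metalloproteases held in the matrix, was at 3.85 in G245S, against 4.96, 7.07 and 7.47 as the lowest, median and highest of the other 9, and the controls had 6.37 (WTKD), 7.92 (WTOE) and 6.61 (WT). All 12 other libraries were above G245S, and the difference of -2.78 came to 13.4 TPM in G245S beside a median of 133.7 TPM. TIMP1 went the other way without leaving the range, at 12.67 in G245S against 9.77 to 14.59.

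In the mesenchymal list G245S was called lower in 3 of 17 genes (17.6%, against 1.77% of all genes) and higher in none, with a median difference of -0.46. SPARC, a matrix glycoprotein that binds collagen, was at 3.46 in G245S, against 5.11, 6.15 and 7.13, and WTOE was lower still at 1.93. SNAI2, the transcription factor Slug that represses epithelial genes, was at 5.17 in G245S, against 5.56, 6.56 and 7.75, below all 3 controls too. The list did not move as 1 block: VIM, the filament protein vimentin, lay above the range, at 10.21 in G245S against 7.74 to 10.01, a difference of 0.83 that did not reach the rule. ZEB2 was at 3.49 in G245S, against 0.36 to 3.90, and FN1 at 7.09, against 5.31 to 9.76. Against all 12 other lines only SNAI2 stayed called.

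**Figure D3:**
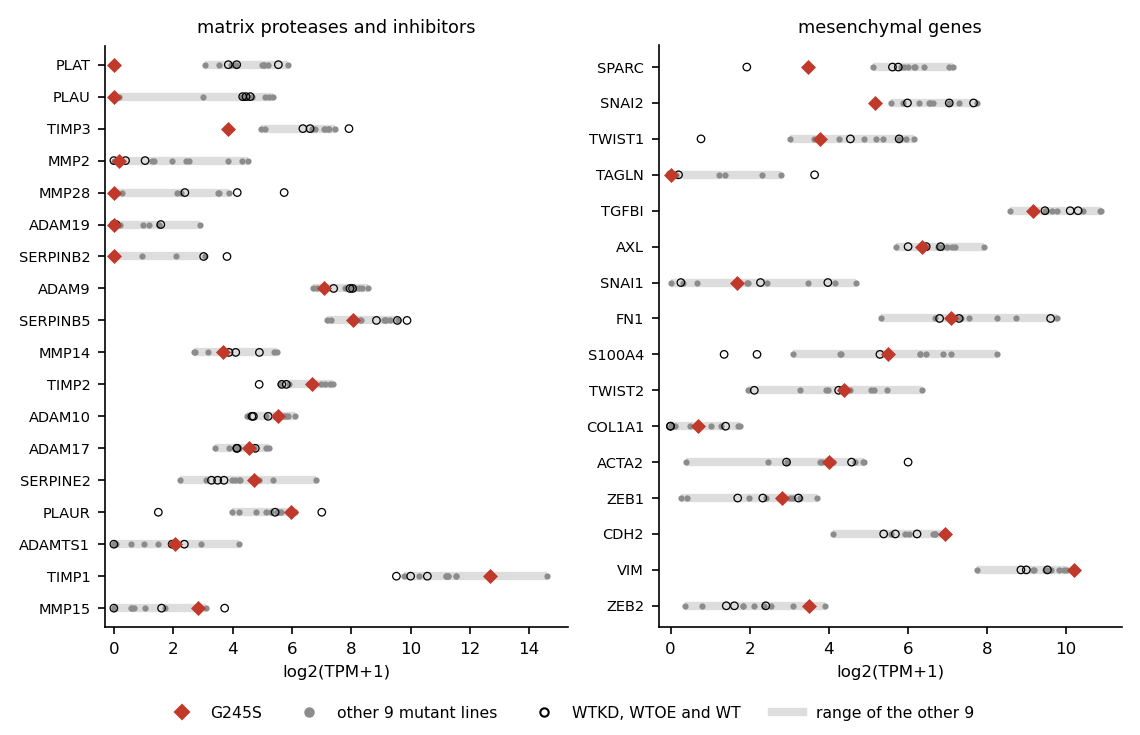
Levels as log2(TPM+1) of 18 of the 19 measured matrix proteases and inhibitors (left) and 16 of the 17 measured mesenchymal genes (right), lowest difference at the top, with symbols as in the plot of histones. G245S (red) is left of all other lines for PLAT, TIMP3 and SNAI2, and right of the other 9 mutant lines for VIM (10.21 against a highest of 10.01).

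Other matrix and adhesion genes leaned low. Among 24 collagen and matrix genes 2 were called lower (8.33%, against 1.77% of all genes), SPARC and SPOCK1. SPOCK1, a matrix proteoglycan, was at 1.84 in G245S, against 2.21, 4.16 and 6.06. Of 14 laminin and hemidesmosome genes none was called, 12 were below the mean, and the median difference was -0.52. LAMA3, the alpha chain of laminin-332, was at 4.79 in G245S, against 3.18, 7.13 and 7.85, with only R273H lower and the controls at 8.26 to 8.61. LAMA5 was at 4.38 in G245S, against 4.72 to 6.62, below the range by less than the rule asks. Of 12 integrins none was called: ITGA6 was at 6.74 in G245S, against 5.23, 8.33 and 8.75, and its partner ITGB4 at 5.49, against 4.51, 6.50 and 7.76, each with 1 mutant line lower. Without R273H and Y234C, 5 laminin and hemidesmosome genes and 2 integrins were called lower, beside 5.49% of all genes in that setting. The 2 integrins, ITGA6 and ITGB4, belong to both lists and are counted in each.

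Epithelial lists held no call. Among epithelial junction genes CLDN7 was at 1.43 in G245S, against 0.00 to 5.47, and EPCAM at 5.16, against 2.53 to 8.17. Basal mammary markers had a median difference of -0.64 over 15 genes, with MME at 1.54 in G245S, against 0.10 to 4.84, and 13 of 15 below the mean. Luminal mammary markers had FOXA1 at 3.74 in G245S, against 0.29 to 4.79, and AGR2 listed at 0, against 0.00 to 3.99. Squamous differentiation genes had a median of -1.04 over 9 genes, but with a pseudocount of 0.1 it was -2.06 and among genes passing the stricter filter -0.18, and S100A8 and S100A9, both listed at 0 in G245S, were at 0 in other mutant lines as well.

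Among EGF receptors and ligands G245S was called higher in 2 of 16 genes (12.5%, against 7.01% of all genes), too few to set the list apart. NRG1, neuregulin, which binds ERBB3 and ERBB4, was at 5.55 in G245S, against 1.12, 2.52 and 4.50 as the lowest, median and highest of the other 9, and the controls were at 3.77 (WTKD), 4.30 (WTOE) and 3.34 (WT). No other library reached it, and the difference was 2.88 from a mean of 2.67 ± 1.03 (SD over 9 lines). BTC, betacellulin, a ligand of EGFR and ERBB4, was at 3.26 in G245S, against 0.00 to 2.98, with WTOE at 3.05.

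Among YAP/TAZ targets 1 of 25 was called each way (4%, against 7.01% higher and 1.77% lower over all genes). GADD45B, a stress sensor that acts on the p38 and JNK kinases, was at 6.39 in G245S, against 2.40, 3.45 and 5.33, and at 2.74 (WTKD), 0.00 (WTOE) and 0.00 (WT). ARHGEF17, a guanine nucleotide exchange factor, was at 1.67 in G245S, against 1.78 to 5.36, a call that was lost in 6 alternatives. The rest of this list stayed inside the range except 1 gene above it.

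Immediate early genes had 2 lower calls among 22 (9.09%, against 1.77% of all genes). JUN, the AP-1 subunit, was at 0.18 in G245S, against 0.70, 2.72 and 3.50, with controls at 2.77 to 3.79. MYC was at 6.38 in G245S, against 6.79, 7.47 and 8.58, and at 7.09 (WTKD), 8.62 (WTOE) and 8.91 (WT). Both were lowest in G245S of all 13 libraries.

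Cytokines diverged within the interleukin-1 pair. IL1A was at 2.10 in G245S, against 3.03, 5.05 and 6.77, with controls at 3.56 to 7.43. IL1B was at 4.52 in G245S, against 0.00, 1.91 and 4.34, with WTKD above it at 5.68. CXCL16, a chemokine that is also a membrane protein, was at 5.82 in G245S, against 2.99 to 5.30, and its call was lost after quantile normalization, after the median shift and without R273H.

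TGF-beta and activin genes had 2 lower calls among 29 (6.9%, against 1.77% of all genes). LTBP1, which anchors latent TGF-beta in the matrix, was at 4.96 in G245S, against 5.28 to 6.74. ACVR2A, an activin receptor, was at 0.86 in G245S, against 1.55 to 3.83. Wnt genes had 3 higher (10.7%, against 7.01% of all genes) and 1 lower (3.57%, against 1.77%) among 28, too few to set the list apart. FZD7 was at 2.73 in G245S, against 0.00 to 2.02, while FZD2, a receptor of the same family, was at 1.86 in G245S, against 2.34, 3.72 and 5.52. WNT9A was at 3.50 in G245S and listed at 0 in 6 of the other 9, whose highest was 3.07. CBY1, an inhibitor of beta-catenin, was at 4.40 in G245S, against 2.80 to 4.09, and its call was lost in 5 alternatives. Notch genes held no call, with NRARP and HEY1 listed at 0 in G245S and in 4 of the other 9 lines.

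In cholesterol synthesis SREBF1, the transcription factor of lipid synthesis, was at 4.75 in G245S, against 1.70, 3.46 and 4.62, with WT above it at 5.09. INSIG1, which holds SREBP in the endoplasmic reticulum, was at 5.38 in G245S, against 6.23, 6.51 and 7.78, and below all 3 controls. LSS, lanosterol synthase, was at 4.14 in G245S, against 4.48 to 6.22. The SREBF1 call was lost after quantile normalization and after the median shift, and 14 of the 24 genes of the list were below the mean.

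In antigen presentation by MHC class I G245S was called lower in 2 of 15 genes (13.3%, against 1.77% of all genes). The median difference was -0.39, with 11 genes below the mean and 4 above it, HLA-B among the latter with a difference of 1.18. ERAP2, a peptidase that trims peptides, was listed at 0 in G245S, in WTOE and in WT, against 0.11 to 3.78 in the other mutant lines.

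Stress and metabolism lists had 1 or 2 calls each. Among NRF2 genes GSR, glutathione reductase, was at 6.13 in G245S, against 6.17 to 7.74, with a margin of only -0.04, and ABCC3, an export pump, at 5.40, against 5.84 to 7.84, with WTOE lower at 3.71. Among heat shock chaperones DNAJB1, an HSP40 cochaperone, was at 7.86 in G245S, against 5.34, 6.83 and 7.44. The metallothionein MT1X was at 7.52 in G245S, against 4.70, 6.16 and 7.12, and SLC2A1, the glucose carrier GLUT1, at 7.82, against 5.37 to 7.59, with WTOE higher at 8.44. Of the complex I subunits NDUFB11 was at 7.74 in G245S, against 5.19, 6.47 and 6.96, and NDUFA13 at 1.13, against 1.23, 3.47 and 4.79. The unfolded protein list had SESN2 alone.

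The lists of BCL2 family, S100 and proteasome genes held no call. BAX, which permeabilises mitochondria in apoptosis, was at 5.32 in G245S, against 3.19 to 5.87, and BIK at 3.14, against 0.00 to 6.37. S100P was at 3.57 in G245S, against 0.00 to 3.99. PSMB7 was at 9.69 in G245S, against 7.72 to 9.82, and PSMD6 at 5.60, against 5.56 to 8.36. Of the markers of other cell types KDR was called, at 1.62 in G245S against 0.00 to 1.56, with WTKD at 1.57, while CD14 was at 3.96 in G245S, against 0.00 to 4.74. LUM and PDGFRB were listed at 0 in G245S, and VWF and PTPRC in every library.

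**Figure D4:**
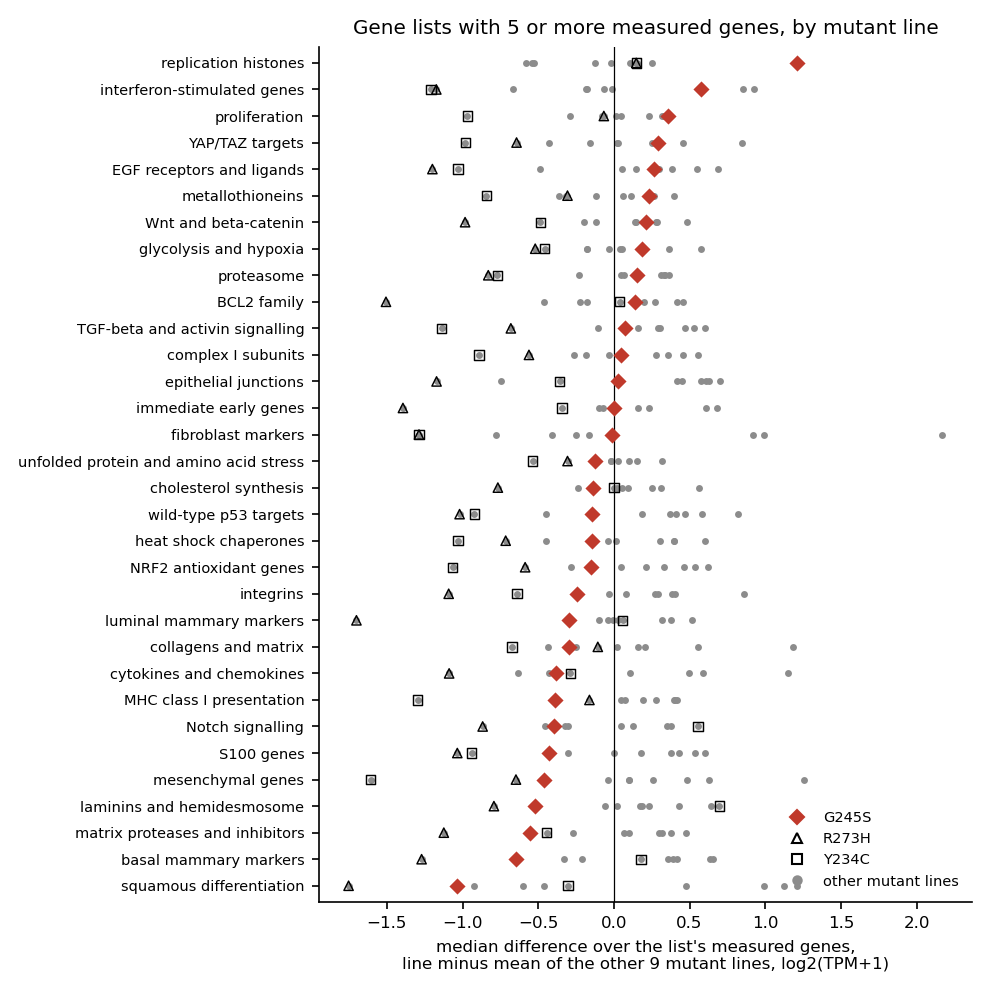
Median difference of each gene list with 5 or more measured genes, for each mutant line against the mean of its other 9, in log2(TPM+1). G245S (red diamonds) stands furthest from the other lines in the replication histones (1.21 against a next highest of 0.25), while R273H (triangles) and Y234C (squares) hold the lowest median of most lists.

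Single genes outside the lists stood much further from the other lines. The protein-coding gene with the largest margin above was BLID (ENSG00000259571, chromosome 11, 122115340 to 122116215), which encodes a BH3-like inducer of cell death. It was at 4.63 in G245S, 1.45 in R273C, 1.02 in Y163C and listed at 0 in the remaining 7 mutant lines and all 3 controls. BLID thus reached 1 in only 3 lines and passed the filter through its G245S value. DDX47, an RNA helicase of ribosome biogenesis, was at 4.56 in G245S and listed at 0 in 5 of the other 9, whose highest was 1.85, while the controls had 1.07 to 2.28. PDC, phosducin, known from photoreceptors, was at 4.84 in G245S, against 0.00 to 2.64, and NHLH1, a neuronal transcription factor, at 4.35, against 0.00 to 1.85.

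A second kind of gene was above 1 in all or most of the other lines and was highest in G245S. HASPIN, the kinase that phosphorylates histone H3 in mitosis, was at 6.85 in G245S, against 2.60, 4.24 and 5.15, with WT next at 6.02. SLC27A4, a fatty acid transport protein, was at 5.80 in G245S, against 2.93, 3.35 and 4.12, a difference of 2.32 from a mean of 3.48 ± 0.45 (SD over 9 lines). TXNDC16, a thioredoxin-domain protein, was at 5.19 in G245S, against 1.17, 3.20 and 3.57. ZFAND4 was at 5.84 in G245S, against 0.00, 2.74 and 3.56.

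The others among the 15 were near or at 0 in most lines. HDAC10, a polyamine deacetylase, was at 3.82 in G245S, against 0.00 to 2.12, and RPP25, a subunit of RNase P, at 4.28, against 0.00 to 2.26, with WTOE at 3.67. PLPP4 was at 4.58 in G245S, against 0.00 to 2.65, ZCWPW1, a histone methylation reader, at 3.41, against 0.00 to 1.15, and SGK494 at 3.48, against 0.00 to 1.32. DDTL was at 4.25 in G245S, against 0.00 to 1.89, and LRRC37A3 at 2.52 while listed at 0 in all other 9. Both have close copies elsewhere in the genome, so their counts are uncertain.

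At the low end 8 of the 15 genes with the largest margin were listed at 0 in G245S: C1orf53, PLAT, SMOX, POLL, PRR13, ZC3H12A, CNPY4 and ZNF768. C1orf53 (ENSG00000203724, chromosome 1, 197902630 to 197907367) had 4.26, 5.28 and 7.07 as the lowest, median and highest of the other 9 and was also listed at 0 in WT. SMOX, spermine oxidase, had 2.89 to 6.44, PRR13 2.42 to 5.97, and ZC3H12A, the RNase Regnase-1, 1.96 to 5.07 in the other 9, and all 3 were above 2 in every control. POLL, a DNA repair polymerase, had 2.70 to 4.32, CNPY4 1.79 to 5.60 and ZNF768 1.60 to 3.24, with POLL and ZNF768 listed at 0 in WT too. Without read counts the level that a listed 0 allows is unknown, and no fold is given.

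HPF1 (ENSG00000056050, chromosome 4, 169729470 to 169757944), the factor that directs PARP1 to modify serine, had the largest margin below among genes with a value in G245S. It was at 1.09 in G245S, against 4.41, 5.12 and 5.87, and at 5.04 (WTKD), 4.75 (WTOE) and 4.49 (WT). The other 12 libraries thus lay between 4.41 and 5.87, far above G245S, with a difference of -4.01 from a mean of 5.10 ± 0.44 (SD over 9 lines). PAXX, a factor of DNA end joining, was at 2.29 in G245S, against 4.39, 5.40 and 7.12. HPS1, of lysosome-related organelle formation, was at 0.17 in G245S, against 2.41, 3.51 and 4.43, and GABARAPL1, an autophagy protein, at 0.19, against 2.17 to 4.69, with WTOE as low at 0.14. MED27, a Mediator subunit, was at 2.47 in G245S, against 4.07 to 6.76, and PSMG4, a proteasome assembly chaperone, at 1.77, against 3.74 to 5.52.

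**Figure D5:**
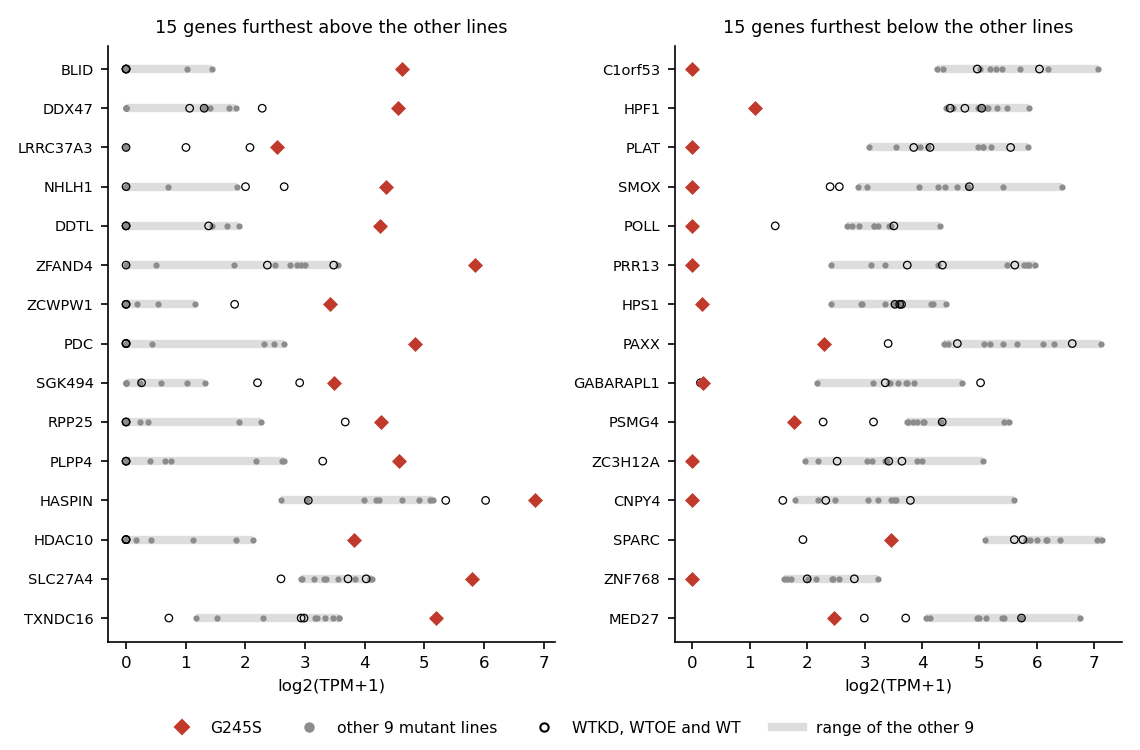
Levels as log2(TPM+1) of the 15 protein-coding genes furthest above (left) and below (right) the other 9 mutant lines, ordered by margin, with symbols as in the plot of histones. Every red diamond lies outside its grey bar; for C1orf53, SPARC, POLL, ZNF768 and GABARAPL1 at least 1 control line is as low as or lower than G245S.

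Noncoding genes with the largest margins were mostly pseudogenes. BRI3P1 was at 5.94 in G245S and at 5.00 in WT, and was listed at 0 in 8 of the other 9 mutant lines. RF00402, a small nucleolar RNA, was at 5.71 in G245S, against 0.00 to 2.15, and the pseudogene DUTP2 at 4.59, against 0.00 to 1.08. In the low direction TXNP6 and AC007182.2, both pseudogenes, were listed at 0 in G245S and in WT, against 2.11 to 5.96 and 1.79 to 3.75 in the other 9, and the long noncoding RNA APTR was at 0.54 in G245S, against 2.21 to 5.28, and at 0.00 in WT. A processed pseudogene shares sequence with its parent gene, so its count cannot be told from misplaced reads of the parent.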

How the data were processed

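Total RNA of 13 MCF10A lines was amplified with a single primer isothermal method and sequenced, 1 library per line. Reads were mapped by the authors with STAR (Ensembl genome, GRCh38 or hg38) and counted by gene. Mitochondrial RNA, in the paper a large and variable part of the reads, was taken out. What was deposited by the authors is log2(TPM+1), in which each column back-transforms to TPM with the same total of 1000000. Duplicate reads, by the paper's rates the great majority in every library, were marked but not removed. Counts without them served the authors as a check, and which of these counts gave the deposited values was not tested. Few distinct reads may therefore stand behind a low value. Which strand was counted is not given in the sources used here, so overlapping and antisense genes cannot be told apart. Counts were not used here, and depth per library is unknown, so no interval and no test over replicates was computed. Peak lists of the series were not used. All per-sample columns were mapped to a sample (0 left out).

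Genes at 1 or more in at least 3 of 13 lines were compared by the rule in the report, with Python 3.11.15, numpy 2.4.6, pandas 2.3.3, scipy 1.17.1 and matplotlib 3.10.9. The rule was tested on simulated data. Biotypes and positions came from GENCODE 44 (GRCh38, 99.3% of genes matched by Ensembl ID), and promoters from RefSeq by symbol. The text names CDKN1A, the 15 protein-coding genes called each way with the largest margin, the 3 noncoding genes each way, every called member of the 34 gene lists, and for a list without a call its 2 members with the largest difference; other names were added after their values were seen, and a few genes that this rule names are not reported here, though the counts include them. The line and the lists were chosen with earlier results of these data known.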

Additional observations from a re-analysis of the deposited data

How the results depend on the processing

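The counts of called genes depend on the settings. G245S was called higher in 1044 and lower in 264 genes. With log2(TPM+5) these were 647 and 150. Without the filter 1639 were higher, and with the stricter filter of 3 in at least 3 lines 575 were higher. Lower calls numbered 621 after quantile normalization, 853 after the median shift and 817 without R273H and Y234C. Leaving out each other mutant line in turn gave 1058 to 1212 higher and up to 465 lower, the most lower calls without R273H and 425 without Y234C. A Z score of the differences with a q under 0.05, which sets genes against each other and has no replicate behind it, gave 47 and 13, and a margin of at least 1 gave 206 and 39. Among genes with a mean of 4 or more, a choice made after seeing the data, 195 and 98 were called. The cause of these changes was not tested, apart from fewer or more genes being compared where a filter changed. Of 83 named genes with a call, 48 kept it in every alternative with a value for that gene, and none changed sign. The other 12 lines as reference took the most calls, 23. No paired analysis was possible because each line has 1 library. Read counts were not used here, so how precise a low value is cannot be given, and a gene listed at 0 may have been present below the depth of its library.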

Other observations

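Chromosome 19 held more of the higher calls than other chromosomes. G245S was called higher in 112 of its 859 genes (13%), against 7.01% over all genes, and the other chromosomes had 4.9% to 8.47%. The median difference there was 0.34 beside 0.09 over all genes. This was seen in the data and not planned, and it is not particular to G245S: by the same rule R273H had 16.2% and R248Q 14.7% of the genes of chromosome 19 called higher, and Y163C had 4.54%. ZNF genes, many of which lie on that chromosome, were called higher in 33 of 380 (8.68%) with a median difference of 0.10.

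Among genes with a mean of at least 6, a set chosen after the values were seen, ELOVL1, an elongase of very long fatty acids, was at 8.90 in G245S, against 4.97 to 7.86 in the other 9 mutant lines. TNFRSF1A, the main TNF receptor, was at 8.70 in G245S, against 6.68 to 7.95, and HIST1H2BM at 9.25, against 5.28 to 8.72. PSCA, a cell surface antigen, was at 3.52 in G245S, against 4.80 to 10.43. HPRT1, the purine salvage enzyme often used as a reference gene, was at 4.49 in G245S, against 5.11 to 7.08, and GPX1, a glutathione peroxidase, at 7.91, against 8.20 to 10.01. TNFRSF1A, ELOVL1, HPRT1 and GPX1 also lay outside the 3 controls. Ribosomal protein genes hardly moved, with 1 of 87 called higher, none lower and a median difference of 0.12.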
